A study of Mus musculus with 9 samples.

Results

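The genes described here encode the subunits of the oxidative phosphorylation machinery, together with the assembly factors and relatives that carry the same name prefixes. They were taken by name from the 46517 genes of the expression table: every gene whose symbol began with Nduf (complex I), was Sdha, Sdhb, Sdhc or Sdhd (complex II), or began with Uqcr (complex III), Cox4 to Cox8 (complex IV) or Atp5 (complex V, the ATP synthase), without pseudogenes. This gave 92 members, of which 45 fell in complex I, 4 in complex II, 8 in complex III, 18 in complex IV and 17 in complex V, and 4 pseudogene entries were left out. By function, 80 of the 92 are subunits, and the others are complex I assembly factors or genes such as Cox7a2l and Atp5sl that share a prefix without belonging to the complex it stands for. Expression values did not enter the choice.

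The libraries came from neutrophils of C57BL/6 mice with pancreatic tumors (OT mice), made by orthotopic transplantation of a luciferase-expressing tumor line derived from KPC mice into the pancreas. Live CD45+ cells positive for Ly6G and Ly6C and negative for lymphoid markers were sorted on day 27 from the bone marrow, the blood and the tumor, with 3 libraries of each, and the labels name the bone marrow cells Ly6G.hi and the other two populations Ly6G+. Each library was a pool of mice, the 3 libraries of a compartment came from separate experiments, and the tumor arose from 1 cell line. All groups are therefore from tumor-bearing wild-type mice, and the comparisons are between compartments of such mice and not with healthy ones.

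Complexes I and II pass electrons from NADH and succinate to ubiquinone, complex III passes them on to cytochrome c, and complex IV hands them to oxygen. Complexes I, III and IV pump protons across the inner mitochondrial membrane, and complex V makes ATP from the returning flow. Except in complex II, some subunits are encoded in mitochondrial DNA and the rest, the genes followed here, in the nucleus, and mature neutrophils are known for few mitochondria and for a reliance on glycolysis.

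Between 4580807 and 7949367 reads per library were recovered from the values, and libraries of 1 compartment correlated with each other (Pearson's r of 0.875 to 0.933 across genes, against 0.415 to 0.793 between compartments). Neutrophil markers (12 of 12 genes with reads) summed to 132496 to 148445 RPM (reads relative to scaled library size) in bone marrow but to 40975 to 42775 in blood, and tumor had 14205 to 18788. Neutrophil precursor markers (5 of 5) reached 1326 to 1869 RPM in bone marrow and at most 13.2 elsewhere. The tumor libraries also held markers of tumor epithelium (10 of 10 with reads, 2628 to 4960 RPM), fibroblasts (7 of 7, 970 to 1114) and acinar cells (6 of 6, 498 to 1941), each of which summed to at most 183 RPM in the other compartments. Macrophage markers (7 of 7) were highest in blood at 1290 to 1465 RPM, as were platelet markers (5 of 5) at 525 to 723. These marker levels move with the compartment in every comparison that follows, and their part in the results was not tested. In such bulk samples fewer cells of a type and less RNA per cell cannot be told apart. The 13 subunits encoded in mitochondrial DNA were listed at 0 reads in every library, so the nuclear genes are seen without their mitochondrial partners.

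On the deposited scaling 36 of the tested members had their highest mean in bone marrow, 10 in tumor and 12 in blood, and 26 had their lowest in blood and 30 in tumor. The same was not counted over all genes tested, so these counts do not set the members apart. Of the 92 members, 58 were over 0 in log2 FPKM in at least 3 libraries and were tested with limma, and 34 were not. This filter can let in a member only through a compartment where it is high. Calls of such a member against a compartment below 0 are not separate support for a difference. In tumor against bone marrow, 28 of the 58 tested members (48.3%) were lower and 1 was higher at an adjusted p under 0.05, where 32.9% of the 7794 genes tested were lower and 22.4% higher (55.3% in either direction). The median member fell by 0.53 on the log2 scale, against a median of -0.21 over all genes. In blood against bone marrow, 27 members (46.6%) were lower and 3 higher, where 23.6% of all genes were lower and 20.6% higher (44.2% in either direction), and the median log2 fold change was -0.59 against -0.04 over all genes. In tumor against blood, 13 members (22.4%) were higher and 16 (27.6%) lower, both below the shares of all genes (28.1% higher, 34.5% lower, 62.6% in either direction), with a median of -0.04 against -0.17. The 3 comparisons share libraries in pairs, so their values stand side by side and are not separate evidence.

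**Figure D1:**
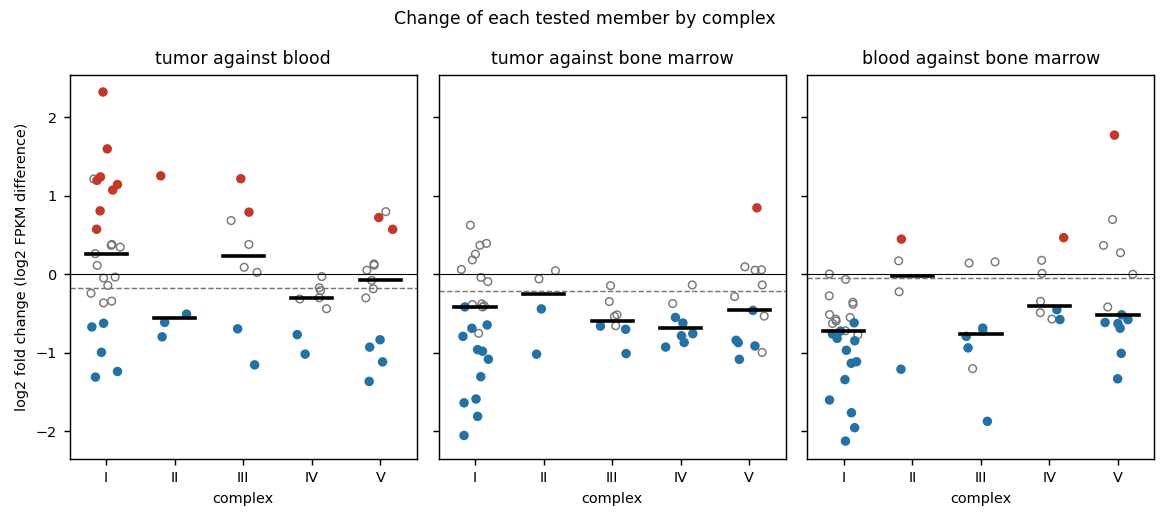
Log2 fold change (difference in log2 FPKM, vertical axis) of the 58 tested members by complex in each comparison. Filled points passed an adjusted p of 0.05 (red higher, blue lower), open points did not, black bars are medians of the complex and the dashed line is the median of all genes tested. Complex I members lie between -2.05 and 0.63 in tumor against bone marrow, and on the deposited scaling complex IV members lie below 0 in both tumor comparisons (on plain library totals their median against blood is 0.14).

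The deposited values rest on library sizes that were scaled by 1.08 to 1.22 in tumor, 0.796 to 0.881 in bone marrow and 0.818 to 0.863 in blood. On plain library totals the median of all genes shifted from -0.21 to 0.25 in tumor against bone marrow and from -0.17 to 0.28 in tumor against blood. Rescaling shifts all genes of a library alike, so the distance of the members' median from that of all genes (-0.33 in tumor against bone marrow) could not change. The calls in that comparison changed to 6 higher and 8 lower (from 1 and 28), and in tumor against blood to 23 higher and 2 lower (from 13 and 16). Blood against bone marrow moved little (3 higher and 25 lower). Shares of all genes called on plain totals are not given here, so counts on that scaling do not set the members apart. Directions in the tumor comparisons are given on the deposited scaling, and the calls named below that also hold on plain totals include those of Ndufv1, Ndufa9, Sdhc, Uqcrfs1, Atp5a1 and Atp5b over blood and of Ndufb11, Sdhb, Atp5h and Atp5f1 under bone marrow. On plain totals Ndufv1, Atp5a1, Atp5b and Sdha were called higher in tumor than in bone marrow, by 0.85, 0.55, 0.51 and 0.39.

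Complex by complex, the medians in blood against bone marrow were -0.72 for complex I (0 higher and 13 lower of 25), -0.02 for complex II (1 and 1 of 4), -0.76 for complex III (0 and 4 of 8), -0.40 for complex IV (1 and 2 of 8) and -0.52 for complex V (1 and 7 of 13). Of all genes 20.6% were higher and 23.6% lower there. In tumor against bone marrow every complex had a median below 0, namely -0.42, -0.25, -0.59, -0.69 and -0.46 for complexes I to V. Tumor against blood split the complexes, with medians of 0.26 for complex I and 0.24 for complex III but -0.56 for complex II, -0.31 for complex IV and -0.08 for complex V. On plain library totals the medians of complex I (0.04) and complex II (0.20) in tumor against bone marrow and of complex IV (0.14) and complex V (0.37) in tumor against blood were above 0.

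**Figure D2:**
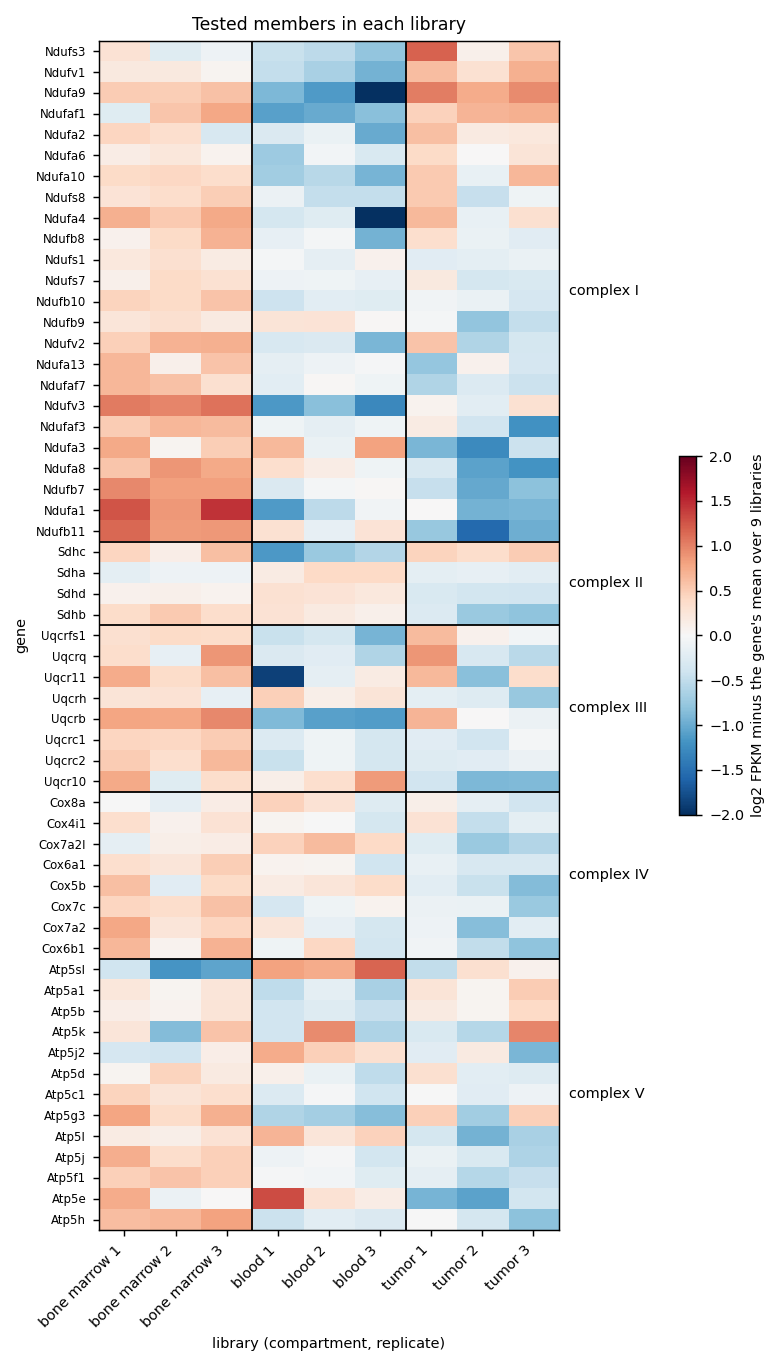
Log2 FPKM of tested members (rows, by complex) in each of the 9 libraries (columns), as the difference from the mean of that gene over the 9 libraries. Bone marrow columns are red for most rows, blood columns are blue for most of complexes I and III, and tumor columns are blue for most of complex IV and for rows such as Ndufb11, Ndufa8 and Sdhb.

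Levels were compared between genes only after recovered reads were divided by the exon length and the scaled library size (exon RPKM). On this scale the highest member over the 9 libraries was Atp5b, the catalytic beta subunit of the ATP synthase, at 158, followed by Sdhd at 115. Per complex the median level was 5.0 in complex I, 52.1 in complex II, 9.34 in complex III, 8.47 in complex IV and 3.97 in complex V among the members with at least 5 reads in some library. Succinate dehydrogenase thus had the highest median level per exon length, though Sdhc, at 8.38 exon RPKM, lay below the median of complex III.

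Summed over the members of a complex, complex I took 821, 827 and 835 RPM of scaled library size in the bone marrow libraries, 473, 513 and 527 in blood and 571, 704 and 759 in tumor. The 3 compartments did not overlap, with blood lowest. Complex II had its highest sum in blood, at 594, 634 and 641, its middle one in bone marrow at 526, 544 and 549, and its lowest in tumor at 434, 440 and 457, again without overlap. Complex III took 435 to 478 RPM in bone marrow, above blood (257 to 308) and tumor (283 to 339), which overlapped. Complex IV was lower in tumor (200 to 287) than in bone marrow (312 to 361) and blood (306 to 366). Complex V took 1761 to 1900 in bone marrow and 1144 to 1371 in blood, and tumor held 1446 to 1762, where 1 tumor library reached the bone marrow range. Per plain library total, complex I in tumor (620 to 865 RPM) overlapped bone marrow (658 to 736), and so did complex III (307 to 386 against 346 to 421). Complex IV overlapped among all compartments on plain totals (tumor 217 to 328, bone marrow 248 to 318, blood 258 to 302), and complex V in tumor (1569 to 2152) reached above bone marrow (1402 to 1675). On plain totals complex II in tumor (478 to 530) overlapped blood (513 to 534).

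**Figure D3:**
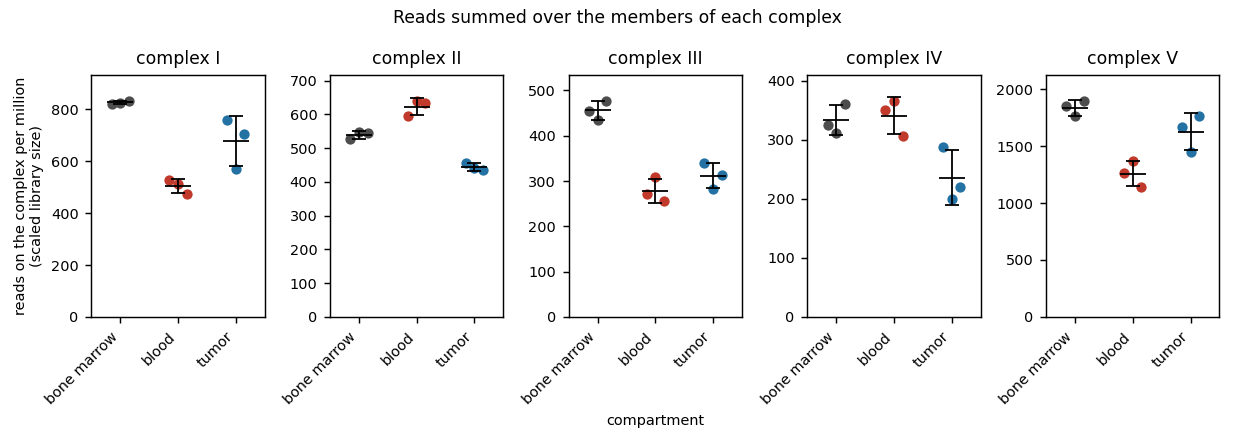
RPM of scaled library size on the members of each complex (vertical axis, from 0) in each library, with the mean and SD of the 3 libraries of a compartment. Complex II is highest in blood at 594 to 641, whereas complexes I, III and V are lowest there on the mean.

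Nuclear respiratory genes are known to carry sites for the factor NRF1, for ETS factors such as GABP and for YY1 close to their starts, so RefSeq promoters (GRCm38.p6, 250 bases before to 50 after the start) were searched on both strands. Of the 92 members, 73 matched an entry. The NRF1 motif (GCGCA, any base, then GCGC) was in 26.0% of the matched members against 5.19% of 27025 genes with a promoter, the ETS motif CCGGAAG in 23.3% against 9.93%, and the YY1 motif ANATGGCG in 19.2% against 4.23%. The core that HIF factors recognise, ACGTG, which also lies within the CACGTG element of other factors, was in 23.3% of members and 21.8% of all genes. At least 1 of the NRF1, ETS and YY1 motifs was in 44 of the 73 matched members (60.3%) and in 17.0% of all genes. By calls, it was in 8 of 9 matched members that were lower in blood and tumor than in bone marrow with no call between these, in 3 of 6 that were lower in blood than in both others and in 4 of 7 that were lower in tumor than in both others. It was also in 4 of 6 that passed no test, in 1 of 4 lower only in tumor against bone marrow and in 2 of 4 lower only in blood against bone marrow. Each remaining pattern had at most 3 matched members, and such small counts do not set a pattern apart. The 30 bases around such motifs are shown for 3 members of the first of these patterns (Atp5h, Atp5c1 and Cox6a1). They are also shown for the complex II genes Sdhd and Sdha, which had other patterns. An ETS match of Cox6a1, 16 bases before the start, is not shown. The motif is in capitals (the ETS letters lie on the opposite strand, as CTTCCGG), and the bases are written along the strand of the gene (minus in each).
Atp5h, NRF1 motif 141 bases before the start, chr11:115420041-115420070: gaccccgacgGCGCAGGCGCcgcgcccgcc
Atp5h, ETS motif 38 bases before the start, chr11:115419939-115419968: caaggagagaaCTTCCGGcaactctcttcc
Atp5c1, NRF1 motif 17 bases before the start, chr2:10080430-10080459: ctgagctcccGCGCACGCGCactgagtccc
Cox6a1, NRF1 motif 162 bases before the start, chr5:115349101-115349130: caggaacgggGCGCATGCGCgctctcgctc
Cox6a1, NRF1 motif 117 bases before the start, chr5:115349056-115349085: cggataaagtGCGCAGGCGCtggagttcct
Sdhd, NRF1 motif 79 bases before the start, chr9:50603909-50603938: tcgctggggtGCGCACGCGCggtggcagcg
Sdhd, ETS motif 46 bases before the start, chr9:50603877-50603906: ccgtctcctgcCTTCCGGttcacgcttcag
Sdha, NRF1 motif 98 bases before the start, chr13:74350319-74350348: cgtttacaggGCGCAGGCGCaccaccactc
Sdha, NRF1 motif 55 bases before the start, chr13:74350276-74350305: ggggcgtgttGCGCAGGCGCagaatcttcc
Sdha, NRF1 motif 10 bases before the start, chr13:74350231-74350260: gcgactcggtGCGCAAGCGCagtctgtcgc
A match is a stretch of letters and not a measured binding site, and Sdha, which carried the NRF1 letters in 3 places, was called higher in blood than in bone marrow.

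Complex I joins a core of conserved subunits, which bind NADH and carry the electrons, to many accessory subunits that surround it. Of the 7 nuclear core subunits tested, 2 were higher in tumor than in blood (28.6%, against 28.1% of all genes) and none was lower (34.5% of all genes). In blood against bone marrow 3 were lower (42.9%, against 23.6%), and in tumor against bone marrow 1 was lower (14.3%, against 32.9%). Ndufv1, the NADH-binding subunit, measured 3.42, 3.43 and 3.30 log2 FPKM in the bone marrow libraries, 2.75, 2.58 and 2.28 in blood and 3.86, 3.54 and 3.94 in tumor. The compartments did not overlap and tumor was highest. Its log2 fold change was 1.24 (SE 0.15, limma adjusted p = 0.000207) in tumor against blood and -0.85 in blood against bone marrow (adjusted p = 0.00284), whereas 0.40 in tumor against bone marrow missed the threshold (adjusted p = 0.0542, and 0.0224 to 0.0462 without blood 1, blood 3 or tumor 2). Ndufs3, another core subunit, was higher in tumor than in blood by 1.20 (adjusted p = 0.00744), and Ndufs1, the largest core subunit, was lower in tumor than in bone marrow by a log2 fold change of -0.42 (adjusted p = 0.0191). Ndufv2 and Ndufs8, which also carry iron-sulfur clusters, were lower in blood than in bone marrow at -1.13 and -0.72. Ndufs7, near the ubiquinone site, passed no test, with log2 fold changes between -0.42 and -0.03.

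The accessory subunits of complex I went in both directions in tumor against blood, as did all genes tested. Of 14 tested, 5 were higher and 5 lower there (35.7% each), where 28.1% and 34.5% of all genes were. In tumor against bone marrow 9 were lower (64.3%, against 32.9% of all genes), and in blood against bone marrow 7 were lower (50%, against 23.6%). Ndufb11, a membrane-arm subunit (X:20615326-20617619), stood at 3.13, 2.83 and 2.84 log2 FPKM in bone marrow, 2.28, 1.82 and 2.25 in blood and 1.22, 0.42 and 0.99 in tumor. Every blood library lay below every bone marrow library, and every tumor library below both. The difference of tumor from bone marrow was -2.05 (SE 0.23, adjusted p = 0.000171), a 4.15-fold lower level. That of tumor from blood was -1.24 (adjusted p = 0.00194), and that of blood from bone marrow was -0.82 (adjusted p = 0.0219, but 0.0711 without blood 2 and 0.0747 without bone marrow 1). Ndufb7, another membrane-arm subunit, followed the same order, with -1.64 in tumor against bone marrow (adjusted p = 0.000133) and -0.67 in tumor against blood. Ndufa8 was at -1.59 in tumor against bone marrow and -0.99 in tumor against blood. In tumor against blood neither Ndufb7 nor Ndufa8 was called on plain library totals, and Ndufb7 was not called with limma-voom either. Ndufa3 was as high in blood (mean 1.58 ± 0.50 SD, n = 3) as in bone marrow (1.57 ± 0.35) and lower in tumor (0.27 ± 0.42), at -1.31 against blood and -1.30 against bone marrow. Ndufb9 was lower in tumor, at -0.62 against blood and -0.69 against bone marrow. The first of these had an adjusted p of 0.0551 without blood 1 and 0.0595 without blood 2. On plain library totals Ndufa3 and Ndufb9 were called in neither tumor comparison.

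Other accessory subunits had their lowest level in blood. Ndufa9, which sits near the ubiquinone site (6:126821721-126849136), read 0.34, 0.33 and 0.42 log2 FPKM in bone marrow, -1.05, -1.30 and -2.41 in blood and 0.86, 0.57 and 0.78 in tumor. The tumor and bone marrow libraries stood well above those of blood, and blood 3 was the lowest of all. Tumor exceeded blood by 2.32 (SE 0.34, adjusted p = 0.000598), the largest rise among tested members in that comparison, and blood fell short of bone marrow at -1.95 (adjusted p = 0.00277). All blood values of Ndufa9 were below 0, so it passed the filter through the other compartments. Its calls for blood were also made with no filter. Ndufv3, a small subunit beside the NADH site, had the largest difference of a tested member between blood and bone marrow, with 2.01, 1.94 and 2.05 in bone marrow, -0.18, 0.12 and -0.32 in blood and 1.03, 0.76 and 1.27 in tumor. The compartments did not overlap, and tumor lay between the others, at -2.12 (adjusted p = 9.51e-05) for blood against bone marrow, 1.15 for tumor against blood and -0.98 for tumor against bone marrow. Ndufa10 was higher in tumor than in blood at 1.07 (adjusted p = 0.00513), Ndufa2 at 0.81 and Ndufa6 at 0.57. Ndufa1, a membrane-arm subunit encoded on the X chromosome, was low in both blood (-1.76) and tumor (-1.81) against bone marrow.

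Ndufa4, once counted with complex I and now placed in complex IV, measured -0.57, -0.46 and -2.45 log2 FPKM in blood against 0.30 to 0.53 in bone marrow, so that blood 3 stood far below the other blood libraries. Its difference of blood from bone marrow was -1.60 (adjusted p = 0.0382, and 0.0539 to 0.0983 without bone marrow 1, 2 or 3 or tumor 3), and tumor against blood, at an adjusted p of 0.0733 with all libraries, passed without blood 2 (0.0437), with a pseudocount of 1 and on plain library totals. All blood values of Ndufa4 were below 0, so it passed the filter through other compartments. With no filter its call in blood against bone marrow was lost. Among the complex I assembly factors tested, Ndufaf1, which helps to build the membrane arm, was higher in tumor than in blood by 1.60 (adjusted p = 0.00142) and lower in blood than in bone marrow at -1.34. Ndufaf3 and Ndufaf7 were lower in tumor than in bone marrow, at -1.08 and -0.96.

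The 4 subunits of complex II, succinate dehydrogenase, did not move together. Sdha, the flavoprotein that oxidises succinate (13:74322254-74350280), measured 3.17, 3.27 and 3.26 log2 FPKM in bone marrow, 3.53, 3.76 and 3.76 in blood and 3.17, 3.20 and 3.16 in tumor. All blood libraries were above all others, while tumor and bone marrow overlapped. The log2 fold change was 0.45 in blood against bone marrow (SE 0.09, adjusted p = 0.00413), -0.51 in tumor against blood (adjusted p = 0.00124) and -0.06 in tumor against bone marrow (adjusted p = 0.598), which became 0.39 (adjusted p = 0.00662) on plain library totals. Tumor against blood passed neither on plain totals nor under quantile normalization.

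Sdhb, the iron-sulfur subunit, was at 2.34, 2.5 and 2.34 in bone marrow, 2.28, 2.16 and 2.09 in blood and 1.71, 1.24 and 1.18 in tumor. Tumor was the lowest compartment, at -0.80 against blood and -1.02 against bone marrow (adjusted p of 0.0026 and 0.000899), though the first was -0.35 (adjusted p = 0.0860) on plain totals. Sdhd, which with Sdhc anchors the enzyme in the membrane, varied little between libraries of a compartment, at 4.28 to 4.32 in bone marrow and 4.43 to 4.51 in blood, with tumor at 3.83 to 3.90. Its difference of tumor from blood was -0.61 (SE 0.06, adjusted p = 9.12e-05) and of tumor from bone marrow -0.44, which became -0.16 (adjusted p = 0.103) and 0.012 (adjusted p = 0.915) on plain library totals. Blood against bone marrow was 0.17 (adjusted p = 0.0575, and 0.0471 without tumor 3). Sdhc went the other way from its partner, with 0.54, 0.24 and 0.71 in bone marrow, -1.04, -0.64 and -0.47 in blood and 0.55, 0.46 and 0.61 in tumor. Tumor was higher than blood by 1.26 (SE 0.21, adjusted p = 0.00123) and blood lower than bone marrow at -1.21 (adjusted p = 0.00281), whereas tumor and bone marrow differed by 0.05 (adjusted p = 0.873). All blood values of Sdhc were below 0, so it passed the filter through the other compartments. Its calls for blood were also made with no filter.

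In complex III, Uqcrc1 and Uqcrc2, the large core proteins, were lower than in bone marrow in both other compartments. Uqcrc1 measured 4.13, 4.11 and 4.20 log2 FPKM in bone marrow, 3.42, 3.62 and 3.35 in blood and 3.48, 3.32 and 3.67 in tumor. Blood and tumor overlapped fully below bone marrow, at -0.69 (adjusted p = 0.00202) and -0.66 (adjusted p = 0.00156), and differed by 0.03 from each other. Uqcrc2 gave -0.79 and -0.70 in the same comparisons. On plain library totals both lost the call against bone marrow in tumor (adjusted p of 0.243 and 0.221) and were called higher in tumor than in blood (0.0184 and 0.0182). Uqcrfs1, the Rieske iron-sulfur protein, dipped in blood, with 2.61 to 3.19 there, 3.87 to 3.92 in bone marrow and 3.48 to 4.17 in tumor, at -0.94 in blood against bone marrow (adjusted p = 0.00802) and 0.79 in tumor against blood (adjusted p = 0.0106).

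Uqcrb, a small subunit that binds ubiquinone, showed the deepest dip in blood of complex III, with 0.63, 0.61 and 0.80 in bone marrow, -1.04, -1.25 and -1.28 in blood and 0.51, -0.16 and -0.27 in tumor. Blood against bone marrow was -1.87 (adjusted p = 0.000686) and tumor against blood 1.22 (adjusted p = 0.00293), and tumor against bone marrow was -0.65 (adjusted p = 0.0517, and 0.0102 without tumor 1). The gene had only 9 to 11 reads in the blood libraries. Its values over 0 were in the bone marrow libraries and tumor 1, so it passed the filter only through bone marrow. Its calls for blood are therefore not separate support for a difference, though both were also made with no filter. Uqcr10 was lower in tumor, at -1.15 against blood and -1.01 against bone marrow. The latter was at an adjusted p of 0.0683 to 0.0855 without bone marrow 1 or 3 or tumor 2 or 3. Neither call of Uqcr10 held on plain library totals. Uqcrh, the hinge protein between cytochrome c1 and cytochrome c, was lower in tumor than in blood at -0.69 (adjusted p = 0.0225, and 0.0520 to 0.0717 without blood 1, blood 3 or tumor 3), and tumor against bone marrow, at -0.53 (adjusted p = 0.0666), passed without bone marrow 3 (0.0426) and with the replicate block. Uqcr11 and Uqcrq passed no test, with log2 fold changes between -1.20 and 0.69 and SDs up to 1.08 within a compartment.

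On the deposited scaling no tested member of complex IV was higher in tumor. Of its 8 tested members, 6 were lower in tumor than in bone marrow (75%, against 32.9% of all genes) and 2 lower than in blood (25%, against 34.5%). On plain library totals, without a share of all genes to set beside them, 0 were lower in tumor than in bone marrow and 1 lower than in blood. The complex's median in tumor against blood was 0.14 on that scaling. Cox7a2l, which shares the prefix without being counted as a subunit of complex IV (17:83501918-83517330), had the highest level of this group at 92.4 exon RPKM. It measured 3.21, 3.52 and 3.53 log2 FPKM in bone marrow, 3.85, 4.02 and 3.79 in blood and 3.15, 2.65 and 2.81 in tumor. Blood was above the other compartments in every library and tumor was the lowest. Tumor against blood was -1.02 (SE 0.15, adjusted p = 0.000679) and passed under all alternatives. Tumor against bone marrow was -0.55 (adjusted p = 0.0169, and 0.0503 to 0.0583 without bone marrow 2 or 3 or tumor 2) and was also lost under quantile normalization and on plain totals (adjusted p = 0.642), and blood against bone marrow was 0.47 (adjusted p = 0.0401, and 0.0512 to 0.128 without any 1 of the blood or bone marrow libraries or tumor 3).

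Cox6a1, one of the regulatory subunits at the edge of the complex, was lower in tumor than in bone marrow at -0.62 (adjusted p = 0.00973), and Cox7c, a small membrane subunit, at -0.78 (adjusted p = 0.0111). Both were also called lower in blood than in bone marrow, at -0.45 and -0.58, with adjusted p-values of 0.0454 and 0.0478. Leaving out 1 library ended the call of Cox6a1 for all but blood 1 (0.0510 to 0.138) and that of Cox7c for all but tumor 3 (0.0508 to 0.137). Cox6b1 and Cox7a2 were lower in tumor than in bone marrow at -0.93 and -0.87, which lost the threshold without bone marrow 1 or 3 or tumor 2 (adjusted p 0.0690 to 0.0909 for Cox6b1, also without tumor 3, and 0.0505 to 0.0777 for Cox7a2).

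Cox5b, a zinc-binding subunit of complex IV, measured 3.15, 2.32 and 2.93 in bone marrow, 2.72, 2.80 and 2.92 in blood and 2.34, 2.10 and 1.69 in tumor. Bone marrow 2 lay within the tumor range, and blood did not overlap tumor. The differences were -0.77 against blood (adjusted p = 0.0231, and 0.0544 to 0.0716 without blood 2, blood 3 or tumor 3) and -0.76 against bone marrow (adjusted p = 0.0282, and 0.0555 to 0.0931 without bone marrow 1 or 3 or tumor 2 or 3). Neither call of Cox5b held on plain library totals. Cox4i1, the most conserved nuclear subunit, and Cox8a passed no test with all libraries, with log2 fold changes of -0.37 and -0.13 in tumor against bone marrow. Without tumor 1 the former was -0.58 (adjusted p = 0.0219), and without blood 3 Cox8a was lower in tumor than in blood at -0.53 (adjusted p = 0.0366).

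Of the 13 tested members of complex V, 2 were higher (15.4%, against 28.1% of all genes) and 4 lower (30.8%, against 34.5%) in tumor than in blood. On plain library totals 5 were higher and 0 lower, without a share of all genes to set beside them. Atp5b, the beta subunit (10:128083273-128090391), read 6.67, 6.60 and 6.79 log2 FPKM in bone marrow, 6.15, 6.28 and 6.08 in blood and 6.72, 6.59 and 6.93 in tumor. Tumor and bone marrow overlapped and blood was below both. Tumor exceeded blood by 0.57 (SE 0.11, adjusted p = 0.00225), and blood was at -0.52 against bone marrow (adjusted p = 0.00655). Atp5a1, the alpha subunit, behaved alike, with 4.40 to 4.85 in blood, 5.10 to 5.29 in bone marrow and 5.10 to 5.55 in tumor, a rise of 0.72 over blood (adjusted p = 0.00371) and -0.63 in blood against bone marrow. Without these 2 genes, left out here after their values were seen, the reads on the members came to 2917 ± 49.3 RPM (SD, n = 3) in bone marrow, and blood had 2270 ± 123 and tumor 2162 ± 230, against 3992 ± 118, 3006 ± 194 and 3296 ± 310 with them. Per plain library total tumor had the highest mean, at 3796 RPM with them against 3355 in bone marrow and 2526 in blood, and at 2487 without them against 2450 and 1908.

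The 3 peripheral stalk subunits tested, which hold the head in place, were lower than in bone marrow in both compartments. Atp5h measured 2.82, 2.86 and 2.99 in bone marrow, 1.76, 1.98 and 1.91 in blood and 2.19, 1.85 and 1.38 in tumor. Blood and tumor overlapped below bone marrow, at -1.01 (adjusted p = 0.00446) and -1.08 (adjusted p = 0.00215). Atp5f1 was at -0.61 in blood and -0.91 in tumor against bone marrow, and its -0.30 in tumor against blood (adjusted p = 0.0531) passed without blood 3 (0.0432) or tumor 1 (0.0105). Atp5j gave -0.69 and -0.87 against bone marrow, the first at an adjusted p of 0.0539 without blood 3 and 0.0606 without bone marrow 1. Atp5c1, the rotating gamma subunit of the central stalk, was also lower in both, at -0.58 and -0.46.

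Atp5l, of the membrane part, was lower in tumor than in blood, as were Atp5e and Atp5j2, and none of these calls held on plain library totals. Atp5l was at -1.12 (adjusted p = 0.00291) and Atp5e, which belongs to the central stalk, at -1.36 (adjusted p = 0.0134), with 1.18 to 2.33 in blood and -0.04 to 0.67 in tumor. In tumor against bone marrow Atp5l was at -0.84 (adjusted p = 0.0135), a call lost on plain library totals and with limma-voom. In the same comparison Atp5e at -0.99 (adjusted p = 0.0535) passed without blood 1 (0.0252) or tumor 3 (0.0445). It also passed under quantile normalization, with the replicate block and with the filter on reads. Atp5j2 was at -0.83 in tumor against blood (adjusted p = 0.0417), a call lost without any 1 blood library, bone marrow 1 or 2, or tumor 1 or 3 (0.0554 to 0.117), and its 0.70 in blood against bone marrow passed only without tumor 3 (adjusted p = 0.0386). Atp5g3, one of the genes for the proton-carrying c ring, was lower in blood than in bone marrow at -1.33 (adjusted p = 0.0112), and its 0.80 in tumor against blood (adjusted p = 0.0582) passed without tumor 2, at 1.19 (adjusted p = 0.00121), with the replicate block and on plain library totals.

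Atp5sl, an assembly protein of complex I that carries the prefix of complex V, was the single tested member called higher in tumor than in bone marrow. It measured 0.38, -0.41 and -0.29 in bone marrow, 1.57, 1.5 and 1.92 in blood and 0.28, 1.08 and 0.86 in tumor. Blood was the highest compartment, and tumor 1 lay within the bone marrow range. Blood exceeded bone marrow by 1.78 (SE 0.29, adjusted p = 0.00189), which held under all alternatives. Tumor exceeded bone marrow by 0.85 (adjusted p = 0.0364), which was lost without blood 1 or 2, bone marrow 2 or 3, or tumor 2 or 3 (0.0514 to 0.113), and tumor against blood was -0.93 (adjusted p = 0.0224, and 0.0744 without blood 3 or 0.0678 without tumor 1).

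**Figure D4:**
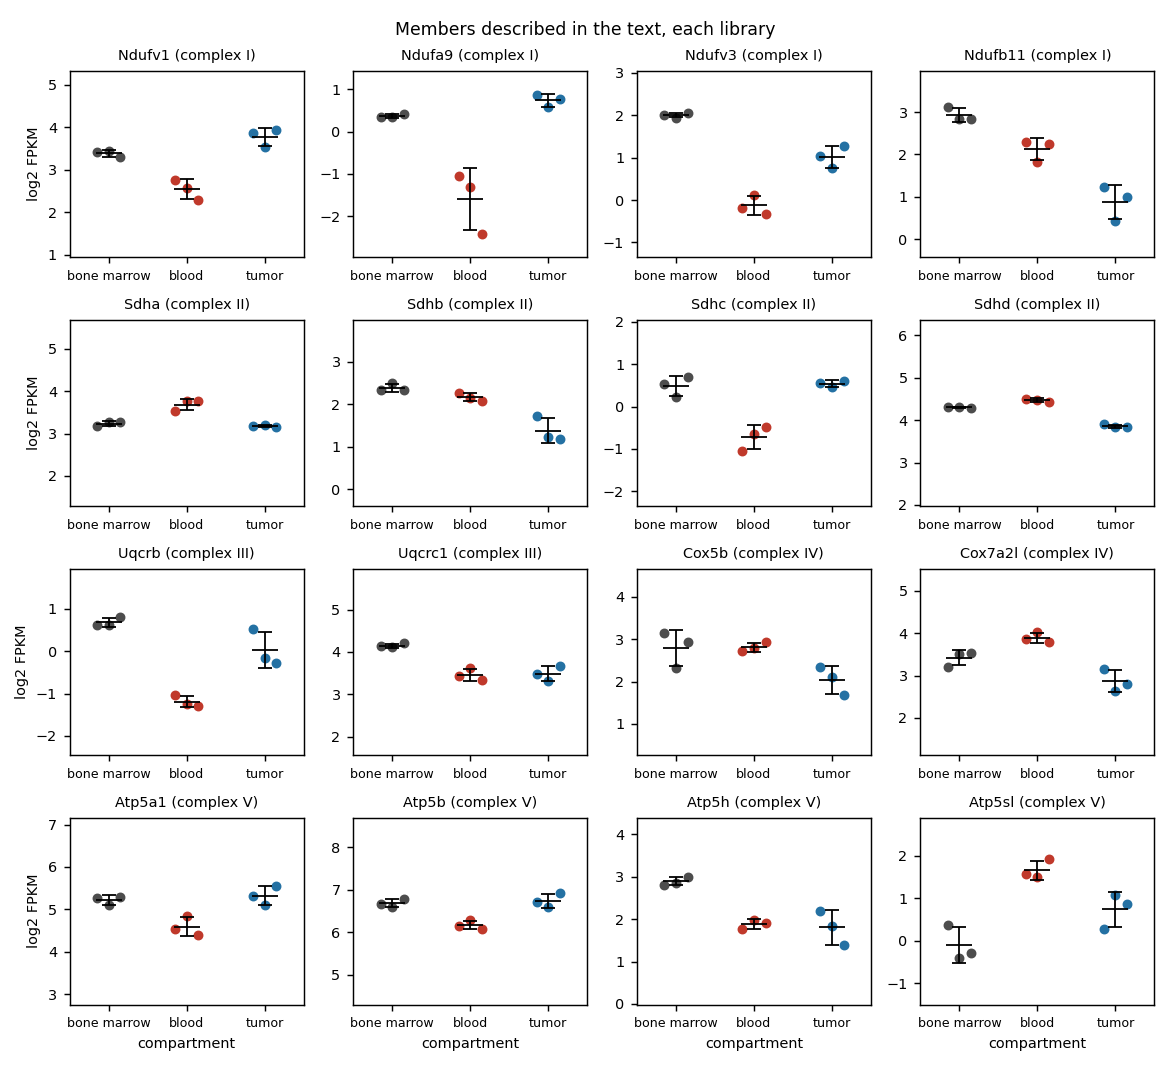
Log2 FPKM (vertical axis, the same span of 4.4 units in each panel) of 16 members in each library, with the mean and SD of the 3 libraries of a compartment. Ndufa9, Ndufv1, Sdhc and Uqcrb dip in blood, Ndufb11, Sdhb and Sdhd are lowest in tumor, and Sdha, Cox7a2l and Atp5sl are highest in blood.

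Across the complexes the tested members were sorted by their pattern of calls. The share of all genes with each pattern was not counted, so the patterns do not set the members apart. The most frequent, in 11 members, was lower than bone marrow in both blood and tumor with no call between these (Ndufa1, Ndufb10, Ndufaf7, Uqcrc1, Uqcrc2, Cox6a1, Cox7c, Atp5c1, Atp5f1, Atp5h and Atp5j). In 9 members blood was lower than both other compartments, with no call between tumor and bone marrow (Ndufv1, Ndufa9, Ndufa10, Ndufaf1, Sdhc, Uqcrb, Uqcrfs1, Atp5a1 and Atp5b). In 8 members tumor was lower than both, with no call between blood and bone marrow (Ndufa3, Ndufa8, Ndufb9, Sdhb, Sdhd, Uqcr10, Cox5b and Atp5l). On plain library totals none of these 8 kept both tumor calls. Ndufb7 and Ndufb11 were lower at each step, and 9 members passed no test. Without regard to the fit, all 3 blood libraries lay below all 3 bone marrow libraries in 40 of the 58 tested members (31.0% of all genes tested) and above them in 5 (27.8%), and all 3 tumor libraries lay below all 3 bone marrow libraries in 30 (37.7% of all genes), with 2 members wholly above (26.2%). Tumor was above blood in every library for 14 members and below it for 17, where 30.0% and 37.0% of all genes were.

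Of the 34 members outside this test, 28 had at least 5 reads in some library, and limma-voom on the recovered reads, fitted to 17714 genes, took in 86 of the 92. It called 4 members higher (4.65%) and 29 lower (33.7%) in tumor than in bone marrow, where 29.3% and 21.0% of all genes were (50.3% together), and 3 higher and 31 lower (36.0%) in blood than in bone marrow, where 13.8% and 16.4% of all genes were (30.3% together). In tumor against blood it called 21 higher (24.4%) and 15 lower, where 33.1% and 21.9% of all genes were (55.1% together). With limma on log2 FPKM for genes with at least 5 reads in at least 3 libraries, 28 members were higher and 16 lower in tumor than in blood, where 36.8% and 24.4% of 14676 genes were (61.1% together). In tumor against bone marrow 4 were higher and 32 lower (28.6% and 22.7% of all genes, 51.3% together), and in blood against bone marrow 3 were higher and 37 lower (15.4% and 20.6% of all genes, 36.0% together). Ndufa12, an accessory subunit of complex I, had 40, 32 and 48 reads in tumor, 14, 15 and 19 in bone marrow and 1, 3 and 2 in blood. The tumor libraries were above all others, and in limma-voom tumor exceeded bone marrow by 1.09 (adjusted p = 0.0375). Tumor exceeded blood by 3.45 (adjusted p = 0.000195), and blood was at -2.35 against bone marrow (adjusted p = 0.0108). Every blood library had under 5 reads on Ndufa12, which entered the fit through the other compartments. Its calls for blood are therefore not support for a difference.

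The limma-voom fit took in 7 assembly factors of complex I. In tumor against blood 5 were higher (71.4%) and 0 lower, where 33.1% and 21.9% of all genes were. In tumor against bone marrow 2 were higher and 2 lower (28.6% each), where 29.3% and 21.0% of all genes were. Ndufaf4 had 98, 39 and 84 reads in tumor against 12, 7 and 7 in bone marrow and 6, 1 and 4 in blood, and was higher in tumor than in blood by 3.69 (adjusted p = 0.00117) and than in bone marrow by 2.73 (adjusted p = 0.0031). Ndufaf2 had 7, 10 and 7 reads in tumor, 5, 0 and 1 in bone marrow and 0 in every blood library, and Ndufaf5 had 15, 13 and 11 in tumor and 1, 0 and 0 in blood. Ndufaf6 had 57, 10 and 30 reads in tumor and 2, 1 and 0 in blood. All of these factors were called higher in tumor than in blood, and Ndufaf2 and Ndufaf4 also than in bone marrow. Ndufaf2, Ndufaf5 and Ndufaf6 had under 5 reads in every blood library and entered the fit through other compartments. Their calls over blood are therefore not support for a difference. Ndufaf5 and Ndufaf6 were not called between tumor and bone marrow. With limma and the filter on reads, blood against bone marrow was -3.37 for Ndufaf5 and -2.96 for Ndufaf6 (adjusted p of 0.0217 and 0.0696). The subunits Ndufs4, Ndufs5 and Ndufa11, in contrast, were lower in tumor than in bone marrow, at -0.82, -2.21 and -1.27 (adjusted p of 0.0112, 0.00361 and 0.0495).

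Several subunits of complexes IV and V come in paralogs or tissue forms. Of the c-ring genes, Atp5g1 and Atp5g2 were higher in tumor than in blood in the same fit, by 1.52 and 1.94 (adjusted p of 0.019 and 0.00478), with 40 to 51 and 38 to 58 reads in tumor. Atp5o, a stalk subunit whose deposited value rests on a length far above its genomic span and so fell under the threshold for testing, had 28 to 49 reads in blood, 128 to 179 in bone marrow and 113 to 163 in tumor. It was higher in tumor than in blood by 1.19 (adjusted p = 0.00862). The isoform Cox4i2, which replaces Cox4i1 under low oxygen, had 6, 1 and 13 reads in tumor, 0, 2 and 3 in blood and 0 in bone marrow. It entered the limma-voom fit only through tumor libraries, so its call over bone marrow (adjusted p = 0.0187) is not support for a difference. Ndufa4l2, a hypoxia-linked relative of Ndufa4, had 2, 4 and 3 reads in tumor and 0 in all others, too few for the fit. The testis form Cox6b2 had 2, 10 and 7 reads in bone marrow and at most 1 in the other libraries. It entered the limma-voom fit only through bone marrow, so its lower calls in both other compartments are not support for a difference. The ubiquitous Cox5a passed neither limma-voom nor the fit with the filter on reads. Cox7b passed only the latter, at 1.02 in tumor against blood and -1.04 in blood against bone marrow (adjusted p of 0.0109 and 0.0177). Of the muscle or germ-cell forms, Cox6a2 and Cox7a1 had at most 1 read in a library, and Cox7b2, Cox8b and Cox8c had none, where a count of 0 allows up to 3 reads.

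Whether members shared a feature that the names did not use was examined with coding length. The 36 tested members with a coding length under 600 bases lay at a median of -0.65 on the log2 scale in tumor against bone marrow, compared with -0.26 for the 12 members from 600 to under 1200 bases and -0.25 for the 10 longer ones. Over all genes with a coding length the medians were -0.20, -0.18 and -0.26. In tumor against blood the members' medians were -0.22, 0.36 and 0.18, and in blood against bone marrow -0.56, -0.67 and -0.62. Of the 92 members, 32 overlapped an exon of another gene, Ndufb11 with Rbm10, Ndufa9 with 1700018A23Rik, Ndufa3 with Tfpt and Uqcrb with Gm10767 among them, and since the strand used in counting is not given in the sources used here, reads of such pairs cannot be told apart.

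Other mitochondrial genes were counted from lists, and their counts stand beside the shares of all genes tested (28.1% higher and 34.5% lower in tumor against blood, 22.4% and 32.9% in tumor against bone marrow, and for blood against bone marrow 20.6% and 23.6%). Mitochondrial import components and chaperones were higher in tumor than in blood in 9 of 11 tested genes and lower in 2, with a median of 2.71, and higher than in bone marrow in 8 with 2 lower, with a median of 0.79. Hspa9, the matrix chaperone that pulls proteins in, was higher in tumor by 3.60 against blood and by 2.40 against bone marrow, and Hspe1, the co-chaperonin, by 4.40 and 2.28, the last at an adjusted p of 0.0537 to 0.0675 without bone marrow 1 or 2 or tumor 1. Tomm22 and Timm17b were the 2 lower ones. The electron carrier pair Cycs (cytochrome c) and Cyc1 (cytochrome c1, a subunit of complex III whose name lacks the prefix) dipped in blood, at -1.67 and -1.51 against bone marrow, and tumor exceeded blood by 1.94 and 1.67.

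Of the 11 tested enzymes of the tricarboxylic acid cycle, which feeds complexes I and II, 5 were higher and 3 lower in tumor than in blood, 1 was higher and 5 lower in tumor than in bone marrow, and 7 were lower in blood than in bone marrow. Idh3a and Fh1 were higher in tumor than in blood by 3.07 and 1.83, and Dlst and Ogdh lower in tumor than in bone marrow at -1.06 and -0.81. Genes of pyruvate entry were higher in 4 of 9 and lower in 1 in tumor against blood, and 3 and 3 against bone marrow. Pdk1, the kinase that shuts pyruvate dehydrogenase, was higher in tumor by 1.73 and 2.74, Pdp1, its opposing phosphatase, by 3.69 and 1.93, and Mpc1, a subunit of the pyruvate carrier, was lower at -2.61 and -1.95. Pdk3 was lower in tumor than in bone marrow at -2.09. Of the 3 tested electron donors to ubiquinone, Sqrdl and Gpd2 were lower in tumor than in both compartments (Sqrdl at -1.51 and -2.48, Gpd2 at -1.06 and -0.79), and Etfdh was higher in tumor than in blood.

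Among carriers and channels, 5 of 6 were higher and 1 lower in tumor than in blood, and 4 higher and 2 lower than in bone marrow. Slc25a4, an adenine nucleotide carrier of muscle and heart, was higher in tumor by 4.79 and 3.93, Slc25a3, the phosphate carrier, by 0.42 and 0.83, and Vdac1 by 1.84 and 0.46, the last at an adjusted p of 0.0515 to 0.0890 without any 1 bone marrow library or tumor 2 or 3. Assembly factors outside the name rule were higher in 3 of 18 and lower in 9 in tumor against blood, and 2 and 7 against bone marrow, with Acad9 higher by 3.88 and 1.92, Tmem186 higher than in blood by 2.16, Cox17 higher than in bone marrow by 2.42 and Bcs1l lower at -1.68 and -2.45. Of 7 tested regulators of mitochondrial transcription, 2 were higher and 2 lower in tumor than in blood and 2 higher than in bone marrow. Peo1, the replicative helicase, was higher by 1.34 and 1.19 and Polrmt, the RNA polymerase, by 1.57 and 0.88, the last at an adjusted p of 0.0533 to 0.0807 without any 1 bone marrow library or tumor 1 or 3. Nrf1 was lower in tumor than in blood at -0.76. The HIF-linked regulators of respiration were higher in 4 of 6 and lower in 1 in both tumor comparisons, with Lonp1 (3.60 and 1.67), Higd1a (3.52 and 2.93) and Bnip3 (1.70 and 3.63) among the higher, and Lonp1 against bone marrow was at an adjusted p of 0.0574 to 0.0650 without bone marrow 2 or 3 or tumor 3. Ucp2, an uncoupling protein, was lower in tumor at -2.48 against blood and -1.87 against bone marrow, and Atpif1, the inhibitor of complex V, passed no test.

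**Figure D5:**
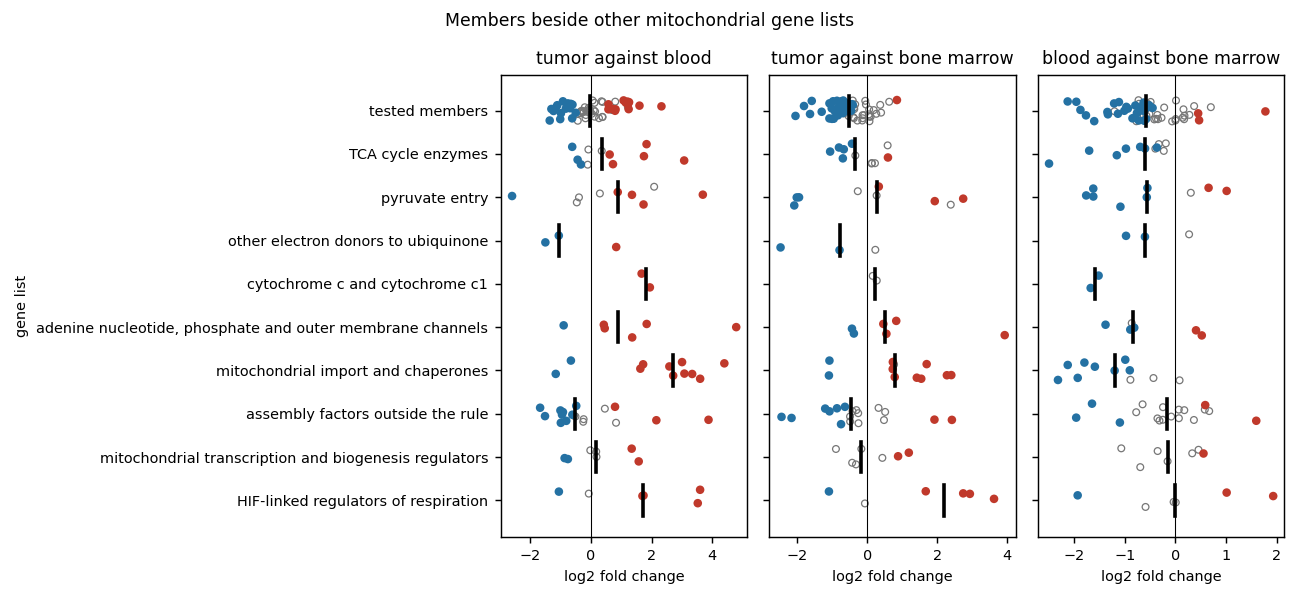
Log2 fold change (horizontal axis) of the 58 tested members and of the tested genes of 9 other mitochondrial lists (rows) in each comparison. Filled points passed an adjusted p of 0.05 (red higher, blue lower), open points did not, and black bars are medians. The import and chaperone genes have a median of 2.71 in tumor against blood where the members have -0.04.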

How the data were processed

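RNA from sorted neutrophils was sequenced by the authors with the SMARTSeq v2 protocol, mapped to GRCm38 with STAR 2.5.2b and counted with featureCounts 1.5.0 on GENCODE M7 genes, and edgeR 3.8.6 is among the tools that the submitters' processing notes name. The deposited values are log2 FPKM, which the authors computed from scaled library sizes with a small constant added and, for 84.5% of the 46005 genes found in GENCODE M21, with the genomic span as length. Whole reads were recovered from the steps between values for 46517 of 46517 genes (tolerance 0.001 reads), which gives 4580807 to 7949367 reads per library. PCR copies stay in the reads, so any count covers counting error only.

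The test was limma (version 3.58.1, R 4.3.3) on the deposited log2 FPKM, for genes above 0 in 3 or more libraries (1 coefficient per compartment, moderated variance that follows the mean level, two-sided, Benjamini-Hochberg adjustment over all 7794 genes, threshold 0.05). The count test, limma-voom on recovered reads, took genes with at least 5 reads in some library and the authors' scaled library sizes. The read recovery and the limma fit on log2 FPKM were run on simulated data, and limma-voom was not. Other alternatives were no filter, a filter at log2 FPKM 2, a pseudocount of 1, quantile normalization, plain library totals, the replicate number as a block, leaving out each library, and members without assembly factors and other non-subunits. A filter on reads (at least 5 in at least 3 libraries) was added after seeing the data. Groups of 3 libraries were described by their values, and medians and sums over members by no test.

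The members and lists were chosen with earlier results of these data known. Named genes were all members of complexes II and III, the paralogs and isoforms, the 4 largest called changes per comparison in complexes I, IV and V, members called higher in tumor than in bone marrow or against most of their complex, and the 2 largest called changes of each other list in each tumor comparison. Further members and list genes (Ndufa10, Ndufs3 and Etfdh among them) were named after their values were seen. Promoter sequences are from RefSeq (GRCm38.p6), and positions of genes from GENCODE M21 (GRCm38). The values of 1 member are not reported here, though it stays in the counts, medians and sums.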

Additional observations from a re-analysis of the deposited data

How the results depend on the processing

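Of 138 calls of a named gene in a comparison, 88 held in every alternative that tested the gene (16 or 17) and 50 were lost in at least 1, and 24 of 66 uncalled values passed in at least 1. The cause was not tested for any of these. Plain library totals moved the tumor comparisons most. They gave 23 members higher and 2 lower against blood and 6 higher and 8 lower against bone marrow. Counts in this section without a share of all genes beside them do not set the members apart. The medians for all members, then complexes I to V, became 0.41, 0.71, -0.11, 0.68, 0.14 and 0.37 against blood and -0.082, 0.036, 0.20, -0.14, -0.24 and -0.0078 against bone marrow. Of the 204 named values, 19 changed sign on plain totals. The sign changes with a call on either scaling were those of Dlst in tumor against blood (0.36, adjusted p = 0.0438), Sdha in tumor against bone marrow (0.39, adjusted p = 0.00662) and Sdhd in tumor against bone marrow (0.012, adjusted p = 0.915).

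Settings that let in members with few reads raised the count higher in tumor than in blood. It was 26 of 89 with no filter and 28 of 84 with the filter on reads (added after seeing the data), 33.3% against 36.8% of all genes. With limma-voom it was 21 of 86 (24.4%, against 33.1% of all genes). The count higher in tumor than in bone marrow was 3 with no filter, 4 with the filter on reads (28.6% of all genes) and 4 with limma-voom (29.3%). In the same order, tumor against blood had medians of 0.26, 0.25 and 0.23 for members, where all genes had 0.089, 0.35 and 0.39. The members' median less that of all genes was 0.13 in the main test and 0.17, -0.10 and -0.16 in these settings. Complex I had medians of 0.70, 0.64 and 0.63 there, and complex V had 0.12, 0.12 and 0.11. Blood against bone marrow had -0.73, -0.74 and -0.74 for members and -0.968, -0.9995 and -0.955 for complex I. Tumor against bone marrow had -0.28, -0.28 and -0.29 for complex V, and members were at -0.42 with no filter and -0.43 with the filter on reads.

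The stricter filter left fewer members, with 4 higher and 7 lower in tumor than in blood, 0 and 13 in tumor than in bone marrow, and 11 lower in blood than in bone marrow. Its medians in tumor against bone marrow were -0.64, -0.44 and -0.37 for complexes I, II and V, in tumor against blood -0.61 and 0.12 for complexes II and V, and in blood against bone marrow 0.17 and 0.012 for complexes II and IV. A pseudocount of 1 gave 2 members higher in tumor than in bone marrow and medians there of -0.36 for members, -0.34 for complex III and -0.34 for complex V. In blood against bone marrow it gave -0.45 for members, -0.55 for complex I and -0.57 for complex III, and -0.52 for complex II in tumor against blood. Quantile normalization gave 2 members higher in tumor than in bone marrow, with medians of -0.080 for complex II and -0.33 for complex V. It gave 0.094 for complex I and -0.21 for complex II in tumor against blood, and -0.10 for complex II in blood against bone marrow. Without assembly factors and other non-subunits, 0 members were higher in tumor than in bone marrow and 1 in blood than in bone marrow.

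Leaving out 1 library at a time, the members' median ranged from -0.16 to 0.078 in tumor against blood and from -0.66 to -0.43 in tumor against bone marrow. Complex I ranged from 0.060 to 0.32 and from -0.59 to -0.41 in these comparisons, complex V from -0.27 to -0.027 in tumor against blood, and complex III from -0.90 to -0.69 in blood against bone marrow. The count higher in tumor than in bone marrow ranged from 0 to 2.

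The replicate numbers were not shown to pair the libraries, since same-numbered libraries correlated at -0.0714 to 0.108 over 9 pairs and 1 pair was over 0.1. With the replicate number as a block, 0 members were higher in tumor than in bone marrow and 28 lower, 13 were higher and 14 lower in tumor than in blood, and 2 were higher and 25 lower in blood than in bone marrow. With few reads on a member in blood (3 to 15 for Uqcr11), a difference may not be detectable at this depth.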
